A study of Mus musculus with 6 samples.

Results

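The transcripts described here are 77 of the 40840 genes in a count table from mouse pancreatic islets, the clusters of endocrine cells that make insulin and glucagon. They were chosen by their level in 1 wild-type library. Levels are in CPM, the reads of a gene scaled to a column total of 1000000. A gene was taken when it had at least 1 CPM in WT library 1 and more than 8 times the CPM of each of the other 5 libraries. The 77 are 0.189% of all rows, and 0.505% of the 15261 genes at 1 CPM or more in WT library 1. The values in WT library 1 chose the genes, so its difference from the other libraries is given as a description, with no test. The same rule applied to the other columns found 0 genes in KO library 1 (0% of rows), 8 in KO library 2 (0.0196%), 3 in KO library 3 (0.00735%), and 0 in each of WT libraries 2 and 3.

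The series is about the insulin-like growth factor 2 receptor, Igf2r, in beta cells, and holds 3 knockout (KO) and 3 wild-type (WT) libraries of isolated islets. All 6 come from mice on a C57BL/6J background, and the labels give no treatment. The sources used here give neither the way the gene was removed nor the sex and age of the mice. Nothing in the labels says whether each library is a different animal, so p-values measure only the spread among the libraries in each test, which can be technical.

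The transcripts are called gut-like, a name that fits most but not all of them. Of the 77, 46 are genes of intestinal epithelium, 22 are genes of B cells, immunoglobulins and gamma delta T cells, and 9 have other or mixed roles. The 22 include Cxcl13, a chemokine that draws B cells and was counted with the B cell genes. These classes were assigned after the genes were known. The genes were not confined to WT library 1 in the strict sense: 41 of the 46 epithelial genes also had reads in KO library 3. They passed the rule because those reads were few.

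The lining of the small intestine is a thin layer of epithelium in which absorptive enterocytes carry a brush border of microvilli. Hydrolases anchored in that membrane finish the digestion of sugars and peptides, transporters take up the products, and fat is packed with apolipoproteins into chylomicrons for export to the lymph. Goblet cells cover the layer with mucus, and intraepithelial lymphocytes and B cell follicles lie within or under it. Islets are endocrine tissue and take no part in absorption.

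Sequence before the transcription start was available for 48 of the 77 genes, from RefSeq on GRCm38.p6. The 250 bases before the start are shown for Apoa4, the epithelial gene with the most reads, and for the next 3 epithelial genes by reads whose window held a searched motif. Each is printed on the gene's own strand, and capitals mark the motif matches. The windows are chr9:46240594-46240843 (plus strand) for Apoa4, chr3:144932530-144932779 (minus strand) for Clca4b, chr11:99438154-99438403 (minus strand) for Krt20 and chr5:145879855-145880104 (minus strand) for Cyp3a11.
Apoa4: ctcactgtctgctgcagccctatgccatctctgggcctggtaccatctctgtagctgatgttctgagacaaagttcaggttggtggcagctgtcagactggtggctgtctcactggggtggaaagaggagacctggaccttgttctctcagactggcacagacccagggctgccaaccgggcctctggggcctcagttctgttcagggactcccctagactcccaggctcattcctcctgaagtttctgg
Clca4b: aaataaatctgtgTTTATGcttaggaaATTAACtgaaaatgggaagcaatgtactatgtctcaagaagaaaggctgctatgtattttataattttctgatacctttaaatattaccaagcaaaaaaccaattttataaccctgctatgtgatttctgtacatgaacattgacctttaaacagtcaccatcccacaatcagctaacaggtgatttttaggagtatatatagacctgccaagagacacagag
Krt20: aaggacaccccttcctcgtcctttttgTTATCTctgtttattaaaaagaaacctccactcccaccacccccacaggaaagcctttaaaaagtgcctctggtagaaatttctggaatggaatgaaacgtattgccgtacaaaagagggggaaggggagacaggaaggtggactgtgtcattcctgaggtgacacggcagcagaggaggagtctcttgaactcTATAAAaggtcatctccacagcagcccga
Cyp3a11: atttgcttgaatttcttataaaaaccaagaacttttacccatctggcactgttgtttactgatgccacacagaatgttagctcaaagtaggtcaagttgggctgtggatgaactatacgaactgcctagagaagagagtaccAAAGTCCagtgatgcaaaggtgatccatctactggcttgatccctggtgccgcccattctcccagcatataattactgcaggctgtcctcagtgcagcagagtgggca
The letters searched were TATAAA, the TATA box, on the gene's strand within bases 40 to 21 before the start, and 5 others on both strands over the whole window. These were GTTAAT for homeodomain factors, AAAGTCC for HNF4, AGATAA for the GATA family, TTTATG for CDX and ATTTGCAT, the octamer of B cell promoters. No motif contains another, though the first 5 letters of TTTATG are also those of the reverse complement of TATAAA. Apoa4 had no match. In Clca4b, TTTATG began 237 bases and GTTAAT, on the other strand, 223 bases before the start. Krt20 held AGATAA on the other strand at 223 bases and TATAAA at 29 bases before the start, and Cyp3a11 held AAAGTCC at 108 bases. A match is a description of letters and not a shown binding site.

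Over the 46 windows of the 39 epithelial genes with sequence, AAAGTCC was in 15.2% (3.58% of all 32851 windows in the table) and AGATAA in 19.6% (9.99%). GTTAAT was in 13.0% (6.43%), TTTATG in 17.4% (10.8%), TATAAA in 4.35% (1.87%) and ATTTGCAT in 0% (1.60%). The windows were poor in CpG: 38 of 46 (82.6%) had at most 5 CpG dinucleotides, against 49.6% of all windows, and the median was 2 against 6. These shares were not tested.

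In WT library 1 the 77 genes took 17895 of 18757633 reads, or 0.0954% (95% Clopper-Pearson interval 0.0940 to 0.0968%). The other libraries held 224, 197 and 615 reads of them in KO libraries 1 to 3, and 197 and 195 in WT libraries 2 and 3. Their summed level was 954 CPM in WT library 1, compared with 11.8, 11.1 and 36.8 CPM in KO libraries 1 to 3 and 11.6 and 10.7 CPM in WT libraries 2 and 3. KO library 3 was the highest of the other 5, and the remaining 4 lay close together. Intervals here cover counting error only. In bulk tissue, fewer cells of a type and less RNA per cell cannot be told apart.

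Reads were spread unevenly over the genes. Apoa4, Apoa1, Ighm and Apob made up 57.8% of the reads in WT library 1, and the median gene was at 3.47 CPM. There were 15 genes at 10 CPM or more and 23 below 2 CPM. In the other libraries, 43 genes had at most 3 reads in each, and 6 had none in any. The plot of the 20 genes with the highest CPM shows the gap between WT library 1 and the rest for each gene.

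**Figure D1:**
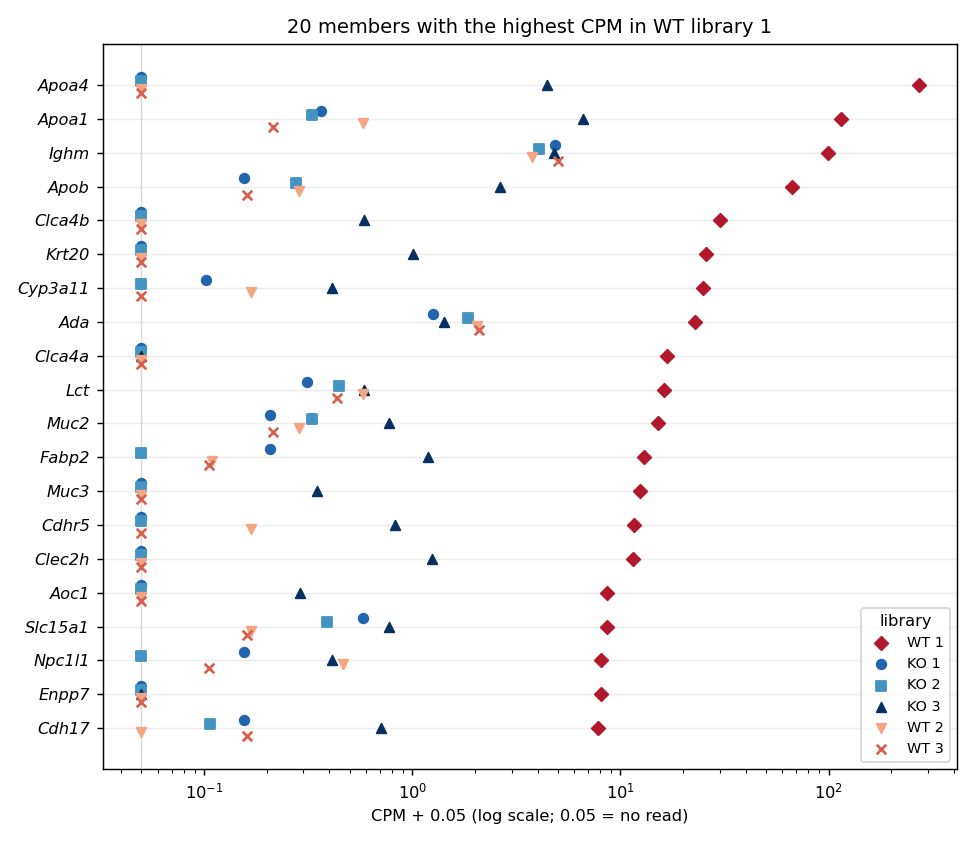
CPM + 0.05 on a log axis for the 20 members with the highest CPM in WT library 1, with 1 point per library. The WT library 1 points run from 7.73 CPM (Cdh17) to 270 CPM (Apoa4), to the right of every other library, and among the others KO library 3 (dark triangles) is mostly the highest.

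Genes of fat absorption made the largest part of the signal, with a summed level of 482 CPM over 8 genes in WT library 1. The sums were 0.950, 0.789 and 15.8 CPM in KO libraries 1 to 3, and 1.71 and 0.606 CPM in WT libraries 2 and 3. Apoa4 encodes apolipoprotein A-IV, which enterocytes secrete on chylomicrons. It had 5069 reads in WT library 1, against 0, 0 and 73 in KO libraries 1 to 3 and 0 and 0 in WT libraries 2 and 3. Only KO library 3 held any other read of it, and WT library 1 was 61.8 times higher (counting interval 49.0 to 78.9). Apoa1, the main protein of high-density lipoprotein, had 2153 reads in WT library 1, against 6, 5 and 110 across the KO libraries and 9 and 3 in WT libraries 2 and 3. Apob, the structural protein of chylomicrons, had 1256 reads in WT library 1, against 2, 4 and 43 across the KO libraries and 4 and 2 in WT libraries 2 and 3. For both, KO library 3 was well above the other 4 and WT library 1 above all.

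Per kilobase of exon, which is the scale on which genes can be set against each other, Apoa4 was at 149 CPM, Apoa1 at 92.9 CPM and Apob at 4.81 CPM in WT library 1. The same level was 52.5 CPM for Ighm, 17.5 CPM for Igkv12-89, and 13.4 CPM each for Fabp2 and Krt20. Apob has the longest transcript of these, so its many reads stand for a modest level.

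Apoc3, an inhibitor of lipoprotein lipase, had 65 reads in WT library 1, against 0, 1 and 2 across the KO libraries and 0 and 1 in WT libraries 2 and 3. It lies between Apoa1 (chr9:46228630-46230469) and Apoa4 (chr9:46240844-46243458) in the apolipoprotein cluster, with gaps of 2581 and 5208 bases (GRCm38). Of the genes next to the cluster, Sik3, a kinase, had 3582 reads in WT library 1, against 3261, 3116 and 2752 across the KO libraries and 3094 and 3084 in WT libraries 2 and 3. Zpr1, a zinc finger protein, had 523 reads in WT library 1, against 567, 492 and 567 across the KO libraries and 505 and 553 in WT libraries 2 and 3. Apoa5, a further apolipoprotein gene of the cluster, had 2 reads in WT library 1 and none in the other 5. Exons of Apoa4 are overlapped on the other strand by Gm10680 and Gm47528, and 15 of the 77 genes have such an overlap. Since the strand setting of the counting is not stated in the sources used here, reads of the 2 strands cannot be separated for these genes.

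Fabp2, the intestinal fatty acid binding protein, had 242 reads in WT library 1, against 3, 0 and 19 across the KO libraries and 1 and 1 in WT libraries 2 and 3. Npc1l1, the enterocyte's cholesterol uptake protein, had 151 reads in WT library 1, against 2, 0 and 6 across the KO libraries and 7 and 1 in WT libraries 2 and 3. Abcg8, a subunit of the transporter that returns sterols to the gut lumen, had 65 reads in WT library 1, against 5, 3 and 7 across the KO libraries and 7 and 2 in WT libraries 2 and 3. Mogat2, which rebuilds triglyceride from monoacylglycerol, had 32 reads in WT library 1 and 0 to 3 in every other library. Not all genes of fat handling behaved this way. Of 20 genes on the lipid and vitamin A list at 1 CPM or more in WT library 1, 8 met the rule. The listed genes with the most reads outside the 8 were Acsl5 (1197 reads in WT library 1, against 955 to 1183 in the other 5), Slc27a4 (990 against 790 to 942) and Mttp (908 against 442 to 555). Those genes were present in every library.

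Of the genes that act at the brush border, 7 together reached 51.0 CPM in WT library 1, compared with 0.739, 1.13 and 2.34 CPM in KO libraries 1 to 3 and 1.06 and 0.661 CPM in WT libraries 2 and 3. Lct, lactase, had 302 reads in WT library 1, against 5, 7 and 9 across the KO libraries and 9 and 7 in WT libraries 2 and 3. Sis, sucrase-isomaltase, had 114 reads in WT library 1, against 0, 0 and 11 across the KO libraries and 0 and 0 in WT libraries 2 and 3. The few reads of Lct were spread over all 5 other libraries, while those of Sis were in KO library 3 alone. Treh, trehalase, had 87 reads in WT library 1 and at most 3 elsewhere, and Naaladl1, an ileal dipeptidase, had 113 and at most 9. Enpp7, the alkaline sphingomyelinase, had 150 reads in WT library 1 and none in the other 5, so it was at least 44.5-fold higher than a floor of 3 counts in 1 library. Aoc1, which breaks down histamine, had 160 reads in WT library 1 and 4 in KO library 3 only. Entpd8, a surface nucleotidase, had 30 reads in WT library 1 and 3 at most elsewhere.

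The brush border list also holds peptidases that islets or their vessels carry. Anpep had 4978 reads in WT library 1, against 3176 to 4293 in the other 5, and Dpp4 had 2915 against 1610 to 2382. Of 13 listed genes at 1 CPM or more in WT library 1, 4 met the rule, and the median log2 ratio of WT library 1 to the mean of the others was 1.97.

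Microvillus and adhesion genes, 8 in number, summed to 53.6 CPM in WT library 1, compared with 0.211, 0.169 and 2.82 CPM in KO libraries 1 to 3 and 0.354 and 0.165 CPM in WT libraries 2 and 3. Krt20, a keratin of mature villus cells, had 483 reads in WT library 1, against 0, 0 and 16 across the KO libraries and 0 and 0 in WT libraries 2 and 3. Cdhr5, the protocadherin that links microvillus tips, had 218 reads in WT library 1, against 0, 0 and 13 across the KO libraries and 2 and 0 in WT libraries 2 and 3. Both were nearly absent outside WT library 1 and KO library 3. Cdh17, liver-intestine cadherin, had 145 reads in WT library 1, against 2, 1 and 11 across the KO libraries and 0 and 2 in WT libraries 2 and 3. Eps8l3, Pdzk1 (a scaffold of brush border transporters), Clrn3, Ceacam18 and Ceacam20 had 21 to 44 reads in WT library 1 and 0 to 2 in every other library. Structural genes that other epithelia share were near level: Vil1, villin, had 2463 reads in WT library 1, against 1744 to 2341 in the other 5, and Ush1c had 2457 against 2215 to 2444. Cdhr2, the partner of Cdhr5, had 554 reads in WT library 1 and 249 to 293 in the other 5.

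Transporters were 5 genes with 21.9 CPM in all in WT library 1, against 0.950, 0.563 and 1.32 CPM in KO libraries 1 to 3 and 0.590 and 0.220 CPM in WT libraries 2 and 3. Slc15a1, the peptide transporter, had 160 reads in WT library 1, against 10, 6 and 12 across the KO libraries and 2 and 2 in WT libraries 2 and 3. It had more reads in each KO library than in either of those WT libraries, and was too low for the test of genotype given later. Slc34a2, a phosphate transporter, had 85 reads in WT library 1, against 2, 0 and 0 across the KO libraries and 1 and 0 in WT libraries 2 and 3. Cubn, the receptor for vitamin B12 bound to intrinsic factor, had 94 reads in WT library 1 and 1 to 7 in the others. Slc5a12, a monocarboxylate transporter, and Atp10b, a phospholipid flippase, had 39 and 33 reads in WT library 1 and 0 to 3 in the others. The list of absorptive transporters had 2 of 20 genes under the rule and a median log2 ratio of 0.68, since Slc2a5 (6999 reads in WT library 1, against 6759 to 8048), Slc6a19 (636 against 355 to 479) and Slc11a2 (486 against 504 to 553) were present in all 6 libraries.

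Genes of drug and steroid metabolism, 7 in number, summed to 44.8 CPM in WT library 1, compared with 0.633, 1.01 and 2.40 CPM in KO libraries 1 to 3 and 0.826 and 0.606 CPM in WT libraries 2 and 3. Cyp3a11, a cytochrome P450 with a broad range of drug substrates, had 464 reads in WT library 1, against 1, 0 and 6 across the KO libraries and 2 and 0 in WT libraries 2 and 3. Its fold of 68.8 over KO library 3, the next highest, has a counting interval of 31.4 to 188. Cyp3a13 had 126 reads in WT library 1, against 9, 12 and 14 across the KO libraries and 6 and 7 in WT libraries 2 and 3, and Cyp4f14 had 109, against 1, 4 and 12 across the KO libraries and 3 and 1. These 2 lay just inside the 8-fold limit, at 8.01 and 8.08. Ces2a (a carboxylesterase), Akr1b7, Cyp3a25 and Cyp2c55 had 20 to 43 reads in WT library 1 and 0 to 4 in the others. The Cyp3a genes resemble each other closely, so the split of reads among them is uncertain. On the list, the abundant Adh1 (2548 reads in WT library 1, against 2176 to 2747) and Ugt2b34 (1114 against 969 to 1307) did not stand apart.

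Mucus and fluid genes, 6 in number, summed to 81.9 CPM in WT library 1, compared with 0.211, 0.282 and 1.98 CPM in KO libraries 1 to 3 and 0.295 and 0.165 CPM in WT libraries 2 and 3. Clca4b and Clca4a, secreted or surface proteins that modulate chloride channels, are neighbours on chromosome 3 with a gap of 19957 bases. Clca4b had 563 reads in WT library 1, against 0, 0 and 9 across the KO libraries and 0 and 0 in WT libraries 2 and 3. Clca4a had 314 reads in WT library 1 and none in the other 5, at least 93.1-fold higher than a floor of 3 counts in 1 library. They are close paralogs, so the division of reads between them is uncertain. Muc2, the gel-forming mucin of goblet cells, had 283 reads in WT library 1, against 3, 5 and 12 across the KO libraries and 4 and 3 in WT libraries 2 and 3. Muc3, a membrane mucin of enterocytes, had 233 reads in WT library 1, against 0, 0 and 5 across the KO libraries and 0 and 0 in WT libraries 2 and 3. Guca2b, uroguanylin, which sets salt and water secretion, had 117 reads in WT library 1 and 6 in KO library 3 only, and Gal3st2, a sulfotransferase, had 27 and at most 1. The listed mucus genes with the most reads outside these 6 were Zg16, a lectin of secretory granules (10423 reads in WT library 1, against 574 to 11664), and Muc4 (3822 against 2731 to 3511), which did not stand apart.

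The last epithelial group holds genes of the epithelium's immune defence. Clec2h, a lectin recognised by receptors of natural killer cells, had 214 reads in WT library 1, against 0, 0 and 20 across the KO libraries and 0 and 0 in WT libraries 2 and 3. Its relative Clec2e had 36 reads, the butyrophilin-like genes Btnl6 and Btnl2 had 50 and 41, and Nlrp9b, an inflammasome sensor of intestinal epithelium, had 25 in WT library 1. None of these 4 had more than 4 reads in another library. The group's sum was 19.5 CPM in WT library 1, compared with 0, 0.0563 and 1.86 CPM in KO libraries 1 to 3 and 0.354 and 0.110 CPM in WT libraries 2 and 3.

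The 22 lymphoid genes followed another order among the other libraries. They summed to 154 CPM in WT library 1, compared with 6.81, 4.96 and 5.39 CPM in KO libraries 1 to 3 and 4.19 and 5.89 CPM in WT libraries 2 and 3. Ighm, the constant region of IgM (chr12:113418826-113422730), had 1858 reads in WT library 1, against 91, 71 and 79 across the KO libraries and 63 and 90 in WT libraries 2 and 3. Unlike Apoa4, it had a steady low level in every library, and WT library 1 was 19.98 times the next highest (counting interval 16.2 to 25.0). Without Ighm the other 21 genes had 1026 reads in WT library 1, against 38, 17 and 11 across the KO libraries and 8 and 17 in WT libraries 2 and 3.

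Genes of B cells themselves were among them. Ms4a1, which encodes CD20, had 47 reads in WT library 1, against 0, 2 and 0 across the KO libraries and 0 and 1 in WT libraries 2 and 3. Pax5, the B cell transcription factor, had 29 reads in WT library 1 and Blk, a kinase of B cell receptor signalling, had 21, with 0 to 3 in the others. Outside the rule, Cd79a did not stand apart, with 634 reads in WT library 1 against 489 to 773, while Cd79b had 23 against 1 to 5. Cxcl13, the chemokine that draws B cells into follicles, had 92 reads in WT library 1, against 4, 6 and 4 across the KO libraries and 6 and 6 in WT libraries 2 and 3. The lambda constant regions Iglc2 and Iglc3 had 33 and 19 reads in WT library 1 and at most 2 elsewhere, and their sequences are near-identical. Trdc, the constant region of the delta T cell receptor, had 39 reads in WT library 1, against 3, 0 and 1 across the KO libraries and 0 and 1 in WT libraries 2 and 3. Cd163l1, a surface protein of gamma delta T cells, had 90 reads in WT library 1 and 0 to 3 in the others. Other listed T cell genes did not meet the rule. In WT library 1 Cd2 had 22 reads (against 2 to 8 in the others), Cd3e 19 (0 to 6) and Itgae 11 (1 to 5). Cd3g had 10 (1 to 4), Gzma 10 (0 to 2) and Gzmb 6 (0 to 5). Cd8a had 3 (1 to 3), Cd7 3 (0 to 3) and Cd3d 2 (0 to 2).

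Immunoglobulin variable (V) segments are the pieces from which each B cell clone builds its receptor. Of 225 V segment rows, 20 were at 1 CPM or more in WT library 1, and 12 of these met the rule. Those 12 had 614 reads in WT library 1, against 22, 0 and 3 across the KO libraries and 1 and 1 in WT libraries 2 and 3. Igkv12-89 led with 111 reads in WT library 1 and none elsewhere, and Igkv14-111 had 97, with 10 in KO library 1 and none in the remaining 4. All 225 together had 1238 reads in WT library 1, against 400, 31 and 23 across the KO libraries and 14 and 44 in WT libraries 2 and 3. In KO library 1, 4 V segments reached 1 CPM, and all 4 did so in WT library 1 too. They had 130 reads in WT library 1 and 129 in KO library 1, so none met the rule. V segments resemble each other, and the split of reads among them is uncertain.

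Products of antibody-secreting cells were not particular to WT library 1. Igha, the constant region of IgA, had 844 reads in WT library 1, against 892, 39 and 24 across the KO libraries and 0 and 48 in WT libraries 2 and 3. Jchain, which joins IgA and IgM units, had 221 reads in WT library 1, against 134, 6 and 6 across the KO libraries and 4 and 17 in WT libraries 2 and 3. Both were high in WT library 1 and KO library 1 only. Iglc1 had the same shape, with 99 reads in WT library 1, against 102, 0 and 0 across the KO libraries and 0 and 8 in WT libraries 2 and 3. Igkc, the kappa constant region, had 1622 reads in WT library 1, against 620, 49 and 48 across the KO libraries and 31 and 52 in WT libraries 2 and 3.

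The 9 genes of other roles summed to 46.0 CPM in WT library 1, compared with 1.32, 2.14 and 3.0 CPM in KO libraries 1 to 3 and 2.24 and 2.31 CPM in WT libraries 2 and 3. Ada, adenosine deaminase, had 427 reads in WT library 1, against 23, 32 and 23 across the KO libraries and 34 and 37 in WT libraries 2 and 3. The other 8 were Sectm1b (109 reads in WT library 1), Ifi27l2b (88), Ly6m (86), 2010106E10Rik (52), Ms4a10 (31), Apol7a (27), Ubd (23) and Ly6d (20). None of these 8 had more than 10 reads in another library.

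**Figure D2:**
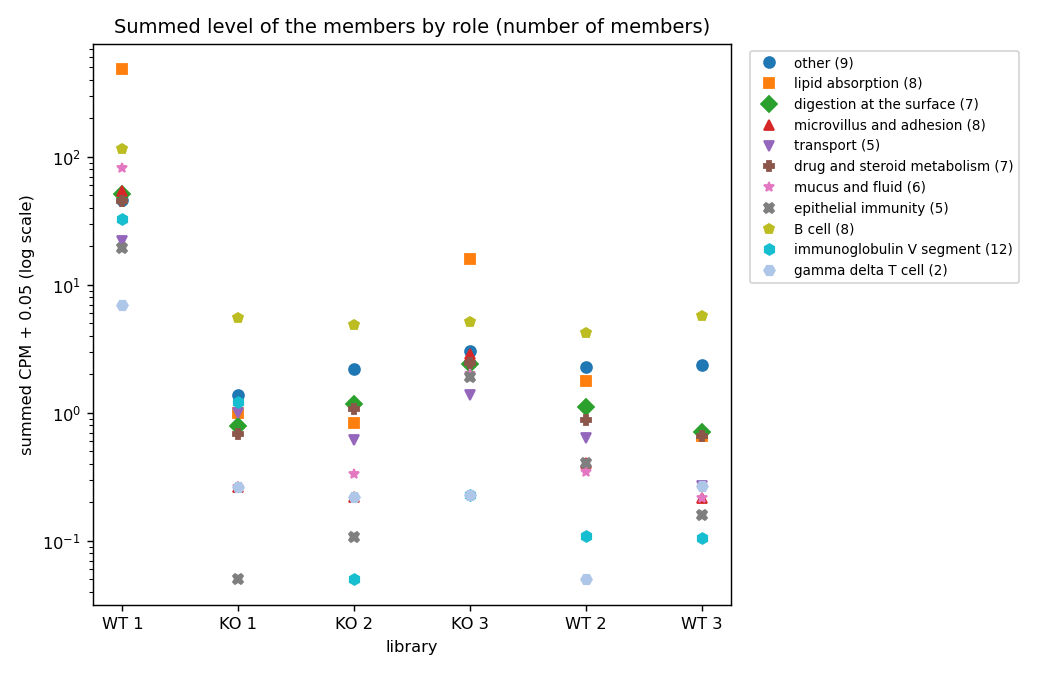
Summed CPM + 0.05 (log axis) of the members of each role in the 6 libraries, with the number of members in brackets. Every role is highest in WT library 1. In KO library 3 the epithelial roles lie above the other 4 libraries (lipid absorption at 15.8 CPM), while B cell genes, at 4.13 to 5.62 CPM in those 5 libraries, do not.

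Differences among the 5 libraries that the rule did not rank are independent of how the genes were chosen, apart from the upper limit it sets. In these the epithelial genes summed to 28.5 CPM in KO library 3, against 3.69 and 4.0 CPM in KO libraries 1 and 2 and 5.19 and 2.53 CPM in WT libraries 2 and 3. The level in KO library 3 was 3.77% of that in WT library 1 (754 CPM), while the other 4 were at 0.336 to 0.689%. Genes that only KO library 3 kept out of the rule were at 13.0% (H2-Q1) to 37.1% (Fabp1) there. The 3.77% therefore holds for the 46 genes alone and is held down by the rule. Without Apoa4, Apoa1 and Apob the remaining 43 genes were at 14.9 CPM in KO library 3, against 3.27 and 3.49 CPM in KO libraries 1 and 2 and 4.43 and 2.26 CPM in WT libraries 2 and 3. A read was present for 41 of 46 genes in KO library 3, against 19 and 20 in KO libraries 1 and 2 and 27 and 20 in WT libraries 2 and 3. KO library 3 is a single library, so this difference has no replicate check.

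At least 5 reads were present for 22 of the 46 epithelial genes in KO library 3, against 7 and 6 in KO libraries 1 and 2 and 7 and 3 in WT libraries 2 and 3. KO library 3 is the shallowest library, with 16689319 reads. Of the 22 lymphoid genes, 1 had as many reads in KO library 3, against 3 and 2 in KO libraries 1 and 2 and 2 each in WT libraries 2 and 3. In the whole table, 19221 rows had at least 5 reads in any of these 5 libraries, and KO library 3 had the highest CPM in 27.0%. Among epithelial genes that met the same limit, it was the highest for 21 of 22 (95.5%).

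**Figure D3:**
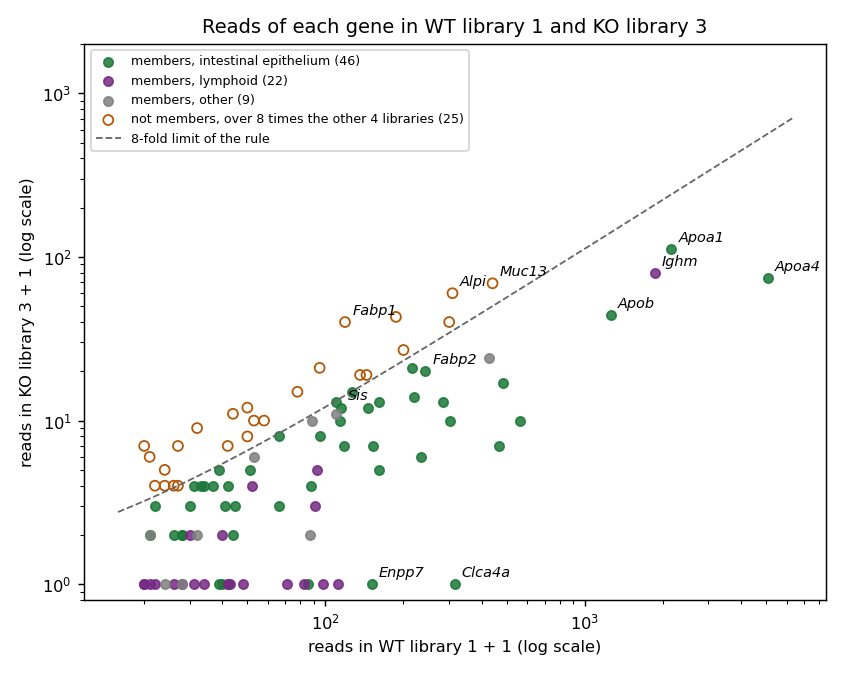
Reads + 1 of each gene in WT library 1 (x) and KO library 3 (y), both on log axes, with members in filled points by class and in open points the 25 genes that only KO library 3 kept out of the rule. Epithelial members rise together in both libraries below the dashed 8-fold limit, which itself rises with WT library 1. Lymphoid members lie mostly at 0 to 4 reads in KO library 3, and Alpi, Muc13 and Fabp1 lie above the limit.

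Reads of the 46 epithelial genes in the 2 libraries rose together, with Spearman's rho of 0.70 and Pearson's r of 0.75 on log2(reads + 1). This is a description over genes that share their libraries and their depth, and the limit of the rule cuts off part of the range. That limit caps KO library 3 in proportion to WT library 1, so part of the rise can be built in by the rule. The proportion between the libraries was not the same for every gene. Apoa4 in KO library 3 was at 1.62% of its WT library 1 level (counting interval 1.27 to 2.04%), and Apoa1 was at 5.74% (4.70 to 6.96%). Clca4a, with no read in KO library 3, has an upper counting limit of 1.33% there, while Clec2h was at 10.5%. These differences exceed counting error and were not tested against replicates.

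If KO library 3 is left out of the rule, 102 genes meet it, 25 more than before. Of the 25, those described here were chosen after their values were seen. Muc13, a membrane mucin, had 440 reads in WT library 1, against 4, 2 and 68 across the KO libraries and 3 and 4 in WT libraries 2 and 3. Alpi, intestinal alkaline phosphatase, had 308 reads in WT library 1, against 0, 0 and 59 across the KO libraries and 0 and 0 in WT libraries 2 and 3. Fabp1, the fatty acid binding protein of liver and proximal gut, had 118 reads in WT library 1, against 0, 0 and 39 across the KO libraries and 0 and 0 in WT libraries 2 and 3. Rbp2, which carries vitamin A in enterocytes, had 186 reads in WT library 1, against 2, 3 and 42 across the KO libraries and 5 and 4 in WT libraries 2 and 3. Alpi and Fabp1 were absent from the same 4 libraries as Apoa4.

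KO library 3 can also be set against the 4 libraries other than WT library 1. There were 14 genes at 1 CPM or more in KO library 3 and over 8 times each of KO libraries 1 and 2 and WT libraries 2 and 3. Of these 14, 9 were also among the 102 such genes of WT library 1, including Apoa1, Apoa4, Apob and Clec2h. The remaining 5 of the 14, Reg3g, Lypd8, Akp3, Usp9y and Lypd8l, had more reads in KO library 3 than in WT library 1. Usp9y, which lies on chromosome Y, had 28 reads in KO library 3 and 0 in each other library. The cause of that difference was not tested. Reg3g, an antibacterial lectin, had 23 reads in WT library 1, against 0, 0 and 73 across the KO libraries and 5 and 0 in WT libraries 2 and 3. Lypd8, which keeps bacteria off the colonic surface, had 24 reads in WT library 1, against 0, 0 and 41 across the KO libraries and 1 and 3 in WT libraries 2 and 3. Akp3, an alkaline phosphatase of the gut, had 1 read in WT library 1, against 1, 0 and 36 across the KO libraries and 0 and 3 in WT libraries 2 and 3.

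Gene lists for the cell types and segments of the gut, chosen with earlier results of these data known, show which kinds of transcript stood apart in WT library 1. They hold 36 of the 77 genes. The median log2 ratio of WT library 1 to the mean of the other 5 was 3.14 for lipid absorption, 2.98 for goblet cell and mucus genes (3 of 11 under the rule), 2.89 for microvillus structure (4 of 14) and 2.56 for drug and steroid metabolism (7 of 20). Over all rows at 1 CPM or more it was 0.01. These values use the same contrast as the rule and are given with no test. Genes under 1 CPM in WT library 1 are outside these medians. A listed gene with few reads in the other libraries thus enters only where WT library 1 is high, which raises the medians. On the goblet list, Spdef had 18 reads in WT library 1, against 0 to 17 in the other 5. Spink4 had 4 against 1 to 3, Agr2 had 3 against 0 to 3, and Guca2a had 9 against 0 or 1. Atoh1 and Retnlb had no read in any library. The 3 goblet list genes under the rule were Muc2, Muc3 and Guca2b, and Muc3 is a mucin of enterocytes.

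Of the 26 lists, 11 held a gene that met the rule. Transcripts of Paneth cells, the antimicrobial cells of the crypt base, were largely missing. Of 21 listed genes in the table, 14 had 0 reads in WT library 1, all 12 alpha-defensins of the list that are in the table and Ang4 among them. The alpha-defensins are near-identical copies, and how the counting treated reads that map to several of them is not stated in the sources used here. None of the listed genes of intestinal stem cells, tuft cells, enteroendocrine cells, smooth muscle or enteric neurons and glia met the rule. Their median log2 ratios were 0.05 over 5 stem cell genes at 1 CPM or more, -0.08 over 4 tuft cell genes, -0.21 over 3 enteroendocrine genes, -0.12 over 7 smooth muscle genes and -0.05 over 8 neuronal and glial genes. Such genes were present in all 6 islet libraries, as Olfm4 (2156 reads in WT library 1, against 1773 to 2340) and Trpm5 (4160 against 2551 to 4542) show, so a small gut share could not be seen in these medians. Intestinal transcription factors had 0.12, and most of the listed factors, such as Hnf4a (977 reads in WT library 1, against 761 to 892), are islet genes too. Cdx2, the intestinal master regulator, was under 1 CPM, with 15 reads in WT library 1, against 1, 0 and 1 across the KO libraries and 0 and 0 in WT libraries 2 and 3.

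By segment, the duodenum and jejunum list had 3 of 8 genes under the rule (Apoa4, Cyp3a11 and Lct) and a median of 2.88. In all, 5 of those 8 were over 2 times each other library. Others on that list did not stand apart. Slc40a1 had 469 reads in WT library 1, against 368 to 508 in the other 5, and Adh1 had 2548 against 2176 to 2747. Cybrd1 and Tmprss15, both under 1 CPM in WT library 1, had 16 reads (against 12 to 17) and 3 (against 0 to 7). The ileum list had 2 of 2 (Muc3 and Clec2h), and its median of 5.69 rests on these 2 genes alone. Others on it were under 1 CPM. Slc51a had 13 reads in WT library 1 (against 1 to 9 in the other 5), Slc51b 8 (0 to 3) and Nts 0 (0 or 1). The ileal bile acid genes Fabp6 and Slc10a2 had 0 and 1 reads in WT library 1, and Gip, a hormone of duodenal endocrine cells, had 12 reads in WT library 1 and none elsewhere. The colon list had 0 of 2, and it includes by mistake Sycn, an acinar gene. On the intestinal adhesion list 3 of 15 met the rule (Krt20, Cdh17 and Ceacam20), with Epcam (3025 reads in WT library 1, against 2497 to 2901) and Krt8 (1941 against 1534 to 1832) high in all libraries. The B and plasma cell list had 3 of 9, and the T and intraepithelial lymphocyte list 1 of 3, Trdc. The plot of list medians shows this order.

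**Figure D4:**
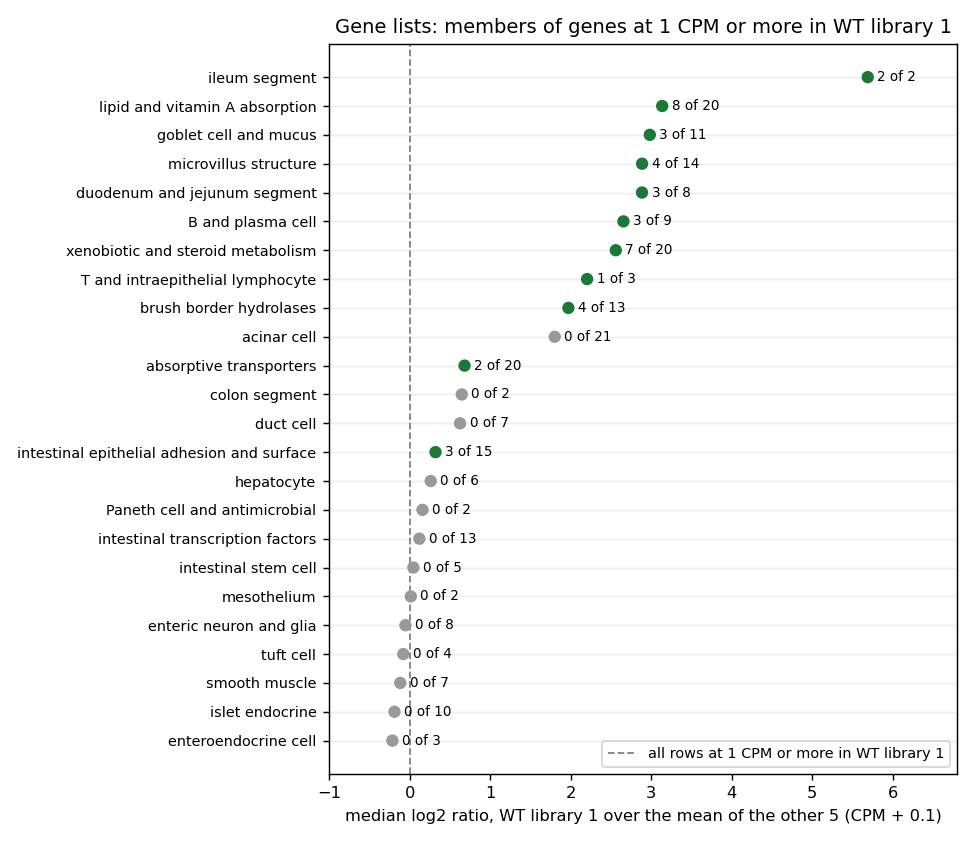
Median log2 ratio of WT library 1 to the mean of the other 5 libraries (CPM + 0.1) for each list with at least 2 genes at 1 CPM or more in WT library 1, with the number of members of those genes. Lists with a member (green) run from 0.32 to 5.69 (the ileum list, over 2 genes), and the dashed line is the median of all such rows (0.01).

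Markers of other tissues near the islets were read in the same way. The acinar list, digestive enzyme genes of the exocrine pancreas, summed to 17172 CPM in WT library 1, compared with 1032, 2650 and 946 CPM across the KO libraries and 17995 and 2948 CPM in WT libraries 2 and 3. It was as high in WT library 2, where the 46 epithelial genes were at 5.19 CPM, as in WT library 1, where they were at 754 CPM. Hepatocyte genes had a median log2 ratio of 0.26, ducts 0.63 and islet endocrine genes -0.19. The hepatocyte median is over 6 genes at 1 CPM or more. Some of them were present in all libraries, such as Ttr (23805 reads in WT library 1, against 24128 to 28296), so a small liver share could not be seen in it. Apoa2 did not stand apart, with 52 reads in WT library 1, against 32 to 55 in the others. Under 1 CPM, Fgb had 9 reads in WT library 1 against 4 to 9, and Serpina1a 2 against 3 or 4. Ahsg had 3 against 0 or 1, and Hp 4 against 0 to 3. Of the 6 genes at 1 CPM or more, 2 were over 2 times each other library, Alb and Cyp2e1. Alb, which encodes albumin and defines hepatocytes, had 56 reads in WT library 1, against 11, 2 and 13 across the KO libraries and 8 and 17 in WT libraries 2 and 3. Cyp2e1 had 35 reads in WT library 1, against 0, 0 and 0 across the KO libraries and 4 and 0 in WT libraries 2 and 3. What brought these reads into WT library 1 was not tested.

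The genes were also set against genotype, without WT library 1, in edgeR's quasi-likelihood test of the 3 KO libraries against WT libraries 2 and 3. Igf2r itself had 928, 841 and 823 reads in the KO libraries and 2145 and 2097 in WT libraries 2 and 3, with 1790 in WT library 1. It averaged 48.5 ± 1.03 CPM in KO and 113 ± 15.8 CPM in WT libraries (SD, n = 3 each), and in the 5 libraries it changed by -1.32 on the log2 scale (SE 0.0603, edgeR adjusted p = 6.14e-12). It was the 1 gene called of 16372 (0.00611%), and with WT library 1 added 2 of 16240 genes were called (0.0123%). Of the 77 genes, 74 were removed by the filter on low counts and 3 were tested, none of which was called or had an unadjusted p under 0.05.

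For Ada the log2 fold change was -0.47 (SE 0.273, edgeR adjusted p = 0.757), and each KO library had fewer reads of it than either WT library. Cyp3a13 had 0.81 (SE 0.488, edgeR adjusted p = 0.765) and Ighm 0.05 (SE 0.183, edgeR adjusted p = 0.972). With no filter 71 were tested and 0 called, and 7 had an unadjusted p under 0.05, as did 1663 of all 26103 genes tested. At this depth no difference by genotype was detectable in these genes, which says little about the 74 with few reads.

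The genes lie on 17 chromosomes, with 11 on chromosome 6, 9 on chromosome 7 and 7 on chromosome 12. Within 200 kb of another of the 77 lie 25, of which 12 are immunoglobulin genes. The other neighbours are the Apoa1, Apoc3 and Apoa4 cluster, the pairs Clca4b and Clca4a, Cyp3a11 and Cyp3a25, Btnl2 and Btnl6, Ly6d and Ly6m, and Ceacam20 and Nlrp9b, which are 280 bases apart. Most of the genes, 61, are protein coding, 12 are V segments and 4 are constant regions.

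At the limits of the rule, Cyp3a13 (8.01-fold), Cyp4f14 (8.08) and Apol7a (8.13) were just inside, and Cyp2e1 (7.90), Pou2af1 (7.83) and H2-Q1 (7.71) just outside. Near the lower limit, Iglv2 and Iglc3 (both 1.01 CPM) and Ly6d (1.07) were inside, and Ces2c (0.960), 2010003K11Rik (0.906) and Slc7a9 (0.906) outside. At 1 CPM a gene had 19 reads in WT library 1, and Iglv2 had a counting interval of 0.610 to 1.58 CPM, so membership at this end is uncertain. Rows met by the rule in other columns were led by Pglyrp1 (165 reads), Nkd1 (95), Ms4a2 (48), Prss56 (45) and Notum (43) in KO library 2 and by Akp3 (36), Usp9y (28) and Lypd8l (24) in KO library 3.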

How the data were processed

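RNA was measured in 3 KO and 3 WT islet libraries. Per the labels' protocols, total RNA went into a strand-specific preparation. The submitters' processing notes name Trimmomatic 0.39, STAR 2.7.10b, featureCounts 2.0.3 and the mm10 build, with no order or settings. For the annotation, the parameters and the strand setting: not given in the sources used here. The authors deposited 1 table of raw read counts per gene, and 0 of its columns were left unused. Totals ranged from 16689319 to 18956235 reads. KO columns are numbered 1 to 3 and KO titles 4 to 6, so KO libraries carry their column number with no link to a title.

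CPM were computed on column totals, and log2 ratios on CPM + 0.1. Gene positions and gene types came from RefSeq, and promoter sequence from RefSeq on GRCm38.p6. Exon lengths and overlaps on the other strand came from GENCODE M21 on GRCm38. KO was tested against WT libraries 2 and 3 with edgeR 4.0.16 (R 4.3.3; filterByExpr with a minimum count of 10 and total of 15, TMM, robust glmQLFit, glmQLFTest, two-sided, Benjamini-Hochberg adjustment over all genes tested, threshold 0.05). WT library 1 was left out because it chose the genes. DESeq2 1.42.0, limma 3.58.1 (voom) and other scalings, filters and library sets were alternatives. The test was checked on simulated counts. Between replicates the chi-square per degree of freedom was 4.26 to 21.8, above sampling noise, so each library counted as 1.

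The 77 genes and the 26 gene lists (356 genes) were chosen with earlier results of these data known, and the roles after the genes were seen. Named are Igf2r, the 20 genes with the highest CPM in WT library 1, every one of the 77 on a list, the 3 genes on each side of each limit, up to 3 other genes per list, and up to 5 per column for the rule in other columns. A few genes covered by this rule are not reported here. Further genes, such as Alpi, Fabp1, Igkc, Sik3, Zpr1, Cdx2, Alb and some others of the 77, were named after their values were seen. Several V segments among the 77 are not named.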

Additional observations from a re-analysis of the deposited data

How the results depend on the processing

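With a limit of 4-fold 120 genes met the rule, with 16-fold 42 and with at least 5 CPM 29. With 0.5 CPM, 2 CPM or TMM-scaled sizes the number was 102, 54 and 77, and with each other library left out of the rule in turn, an alternative chosen after the data were seen, it was 77 to 102. In KO against WT libraries 2 and 3, edgeR called 143 genes with no filter and 2 with WT library 1 added, DESeq2 called 13 and limma-voom 2. Leaving out each library gave 1 to 146 genes: 146 without WT library 3, 93 without KO library 3, 3 without WT library 2, 2 without KO library 2 and 1 without KO library 1. None of the 77 was called under any of these settings (main edgeR test: 3 tested, 0 with an unadjusted p under 0.05; no filter: 71 tested, 7, beside 1663 of all 26103 genes; DESeq2 gave none an adjusted p). The log2 fold change of Ighm ranged from -0.13 (without WT library 2) to 0.27 (without WT library 3) as libraries were left out, and was -0.0027 without KO library 1 and -3.00 with WT library 1 added, and that of Cyp3a13 to -1.93 with WT library 1 added. The last 2 use the library that chose the genes, and the cause of the others was not tested. Leaving out a WT library leaves 1 WT library, which is then assumed to vary like the KO libraries. Igf2r kept its direction and its call in all 10 alternatives. Genes near 1 CPM rest on about 19 reads, so their membership is limited by depth. No paired analysis was possible because the titles number WT samples 1 to 3 and KO samples 4 to 6, so no number is shared.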
